A study of Mus musculus with 12 samples.

Results

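The Slc16 genes encode monocarboxylate transporters (MCTs), membrane carriers named for the short organic acids that the first known members move. The signals of 8 of them were followed here in mouse liver, namely Slc16a1, Slc16a5, Slc16a6, Slc16a7, Slc16a10, Slc16a11, Slc16a12 and Slc16a13, of 18194 genes named on the array. They were chosen by symbol, taking every probe set annotated to a single member, and the family was picked because Slc16a5 and Slc16a12 are higher in cadmium-exposed than in control males. Therefore the male comparison of cadmium with water, and the difference between the male and female effects that contains it, is described below without a test. Cadmium-exposed females against control females, and all males against all females averaged over exposure, do not use that comparison and were tested.

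RNA from the livers of 12 C57BL/6J mice, all 30 weeks of age, was hybridized on Affymetrix Mouse Genome arrays, 1 mouse per array, in 4 groups of 3. LDC males and LDC females received low-dose cadmium (LDC, 100 nM cadmium chloride in the drinking water), first through dams exposed from before mating and then on their own after weaning. Control males and control females, and their dams, received water. The mice of a group are labelled as biological replicates, but neither litter nor cage is given, so the p-values measure the spread between these mice as if they were independent.

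A value below is the MAS 5.0 signal of a probe set, a linear intensity scaled to the same trimmed mean on every array, and it cannot be set against the signal of another probe set. Median signal ran from 95.1 to 110.3 over the 12 arrays. Within a group, pairs of arrays had r = 0.914 to 0.941 for their log2 signals over probe sets, and pairs of opposite sex had 0.872 to 0.918. Xist averaged 103 in LDC males and 105 in control males, against 17730 in LDC females and 17210 in control females, and the Y-linked gene Eif2s3y 2328 and 2674, against 4.12 and 3.38, as the sex labels require. The hepatocyte gene Alb, albumin, averaged 50860 in LDC males, 55230 in control males, 48460 in LDC females and 48350 in control females. No marker gene of any cell type list had a signal of 0, which does not show that each was detected. Cd79a, for example, averaged 5.91 in control females.

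MCT1 (Slc16a1) and MCT2 (Slc16a7) carry lactate, pyruvate and ketone bodies together with a proton, in the direction set by the gradients, and MCT1 needs the glycoprotein basigin to reach the cell surface. Other members carry different cargo. MCT10 (Slc16a10) moves aromatic amino acids and thyroid hormones, and MCT12 (Slc16a12) has been described as a creatine carrier. The liver takes up lactate for gluconeogenesis, exports ketone bodies in fasting and makes creatine for other organs, so that several of these cargoes cross the hepatocyte membrane in large amounts. Slc16a6 has been linked to the export of ketone bodies from hepatocytes in zebrafish, and SLC16A11 carries variants associated with type 2 diabetes in humans.

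The 8 genes are read by 13 probe sets, of which Slc16a10 has 4, Slc16a1 and Slc16a5 have 2 each, and the others have 1 each. Probe sets were tested where their mean log2 signal reached the 40th percentile, a signal of 48.6. Of the 13, 10 passed, for 7 of the 8 genes. Slc16a13 and the dimmer probe sets of Slc16a1 and Slc16a5 did not pass. Each gene is given by its brightest probe set unless another is named.

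For 4 of the 8 genes, Slc16a1, Slc16a10, Slc16a11 and Slc16a12, the RefSeq table used here holds a promoter (build GRCm38.p6). The 250 bases before the annotated start are printed for Slc16a12, which is among the genes that chose the family, and for Slc16a1, the member with the smallest adjusted p between the sexes. The sequence of Slc16a12 is from chr19:34747329-34747578 on the minus strand and that of Slc16a1 from chr3:104638414-104638663 on the plus strand. Capitals mark matches to the E-box CACGTG and to the metal response element core, TGCACNC or TGCGCNC, each searched on both strands.
Slc16a12: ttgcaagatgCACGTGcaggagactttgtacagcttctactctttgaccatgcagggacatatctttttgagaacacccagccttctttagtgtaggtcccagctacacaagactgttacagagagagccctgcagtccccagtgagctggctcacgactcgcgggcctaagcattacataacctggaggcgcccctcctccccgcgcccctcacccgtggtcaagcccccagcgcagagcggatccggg
Slc16a1: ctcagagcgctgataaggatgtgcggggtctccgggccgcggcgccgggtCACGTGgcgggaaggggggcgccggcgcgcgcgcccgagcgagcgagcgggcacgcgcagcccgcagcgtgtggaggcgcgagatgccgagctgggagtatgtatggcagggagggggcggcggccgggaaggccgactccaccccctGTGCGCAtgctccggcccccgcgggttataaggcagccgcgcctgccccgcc
An E-box stood 240 bases before the start of Slc16a12 and 200 bases before that of Slc16a1, and neither of the other 2 promoters had one. Of the 32851 promoter entries in the table, 6.0% hold an E-box in these 250 bases. The metal response element core, the sequence bound by the zinc-sensing factor MTF-1, matched at 1 place in Slc16a1, at 2 in Slc16a11 and at none in Slc16a10 and Slc16a12, and 21.4% of all entries hold it. The STAT site TTCNNNGAA matched in none of the 4, and 7.0% of entries hold it. The promoter of Slc16a1 was the richest in G and C of the 4, at 76.4%, with 37 CpG pairs. That of Slc16a12 had 57.6% and 11 pairs, and the median entry 52.4% and 6 pairs. These matches describe letters, and binding was not measured.

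Slc16a5 encodes MCT6, studied mainly as a carrier of drugs such as bumetanide. Its signals were 977, 836 and 1512 in LDC males, against 239, 116 and 210 in control males. In LDC females they were 346, 848 and 882, against 796, 806 and 729 in control females. The control males lay below every other array, and the LDC males lay above the control females and overlapped the LDC females. The male log2 fold change was 2.58 (standard error 0.34), which is 5.97-fold, and it is among the values that chose the family. Control males stood at 0.242 of the mean of control females, whereas LDC males stood at 1.60 times the mean of LDC females. The order of the group means was LDC males, control females, LDC females and control males, with LDC females overlapping both LDC males and control females. The second probe set of Slc16a5 reached the filter signal in 4 of the 12 arrays and was not tested. Its LDC males lay at 7.44 to 26.8, against 3.14 to 82.3 for control males. Its LDC females lay at 49.5 to 59.5, all above the control females at 16.6 to 31.1.

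Slc16a12 encodes MCT12. Its signals were 2573, 2170 and 2517 in LDC males, against 1111, 1441 and 1046 in control males. They were 1974, 1895 and 2448 in LDC females, against 2229, 2244 and 1714 in control females. Again the 3 control males lay below the other 9 arrays, which spanned 1714 to 2573. The male log2 fold change was 1.02 (standard error 0.15), and this value also chose the family. LDC males overlapped both female groups.

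Slc16a7 encodes MCT2, a carrier with high affinity for pyruvate and lactate, and was not among the genes that picked the family. Its signals were 2569, 2464 and 3213 in LDC males, against 1990, 1624 and 1476 in control males. They were 2676, 2925 and 3444 in LDC females, against 2581, 3042 and 2572 in control females. The control males were once more the lowest 3 arrays, and the other 9 spanned 2464 to 3444. The male log2 fold change was 0.70 (standard error 0.14).

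**Figure D1:**
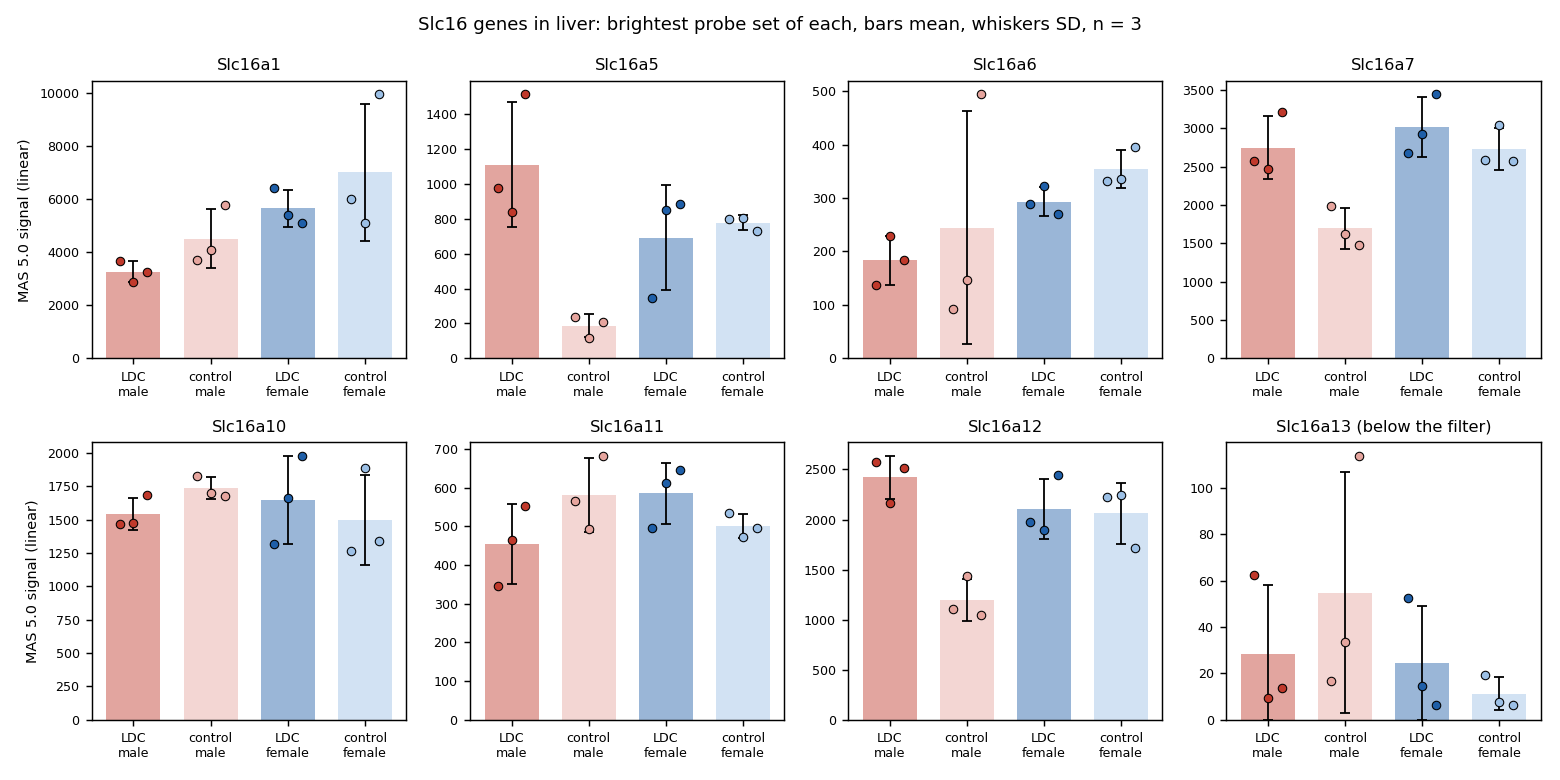
MAS 5.0 signal (y axis, linear) of the 8 Slc16 genes, each by its brightest probe set, with the 4 groups along the x axis. Points are arrays, bars are means and whiskers are SDs, not drawn below 0. For Slc16a5, Slc16a7 and Slc16a12 the 3 control males lie below the other 9 arrays, for example at 116 to 239 against 346 to 1512 for Slc16a5.

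Slc16a1 encodes MCT1, the widespread lactate and ketone body carrier. In males its values ran the other way from those of Slc16a5. Its signals were 3670, 2876 and 3236 in LDC males, against 3684, 4063 and 5777 in control males, so that the groups were separated by a narrow gap. The male log2 fold change was -0.45 (standard error 0.21). Slc16a6 measured 138, 229 and 183 in LDC males, against 93.0, 146 and 494 in control males, a log2 fold change of -0.07 (standard error 0.44). Control male 3 held the highest signal of Slc16a6 in any array, and without it the male value was 0.62. Slc16a10 measured 1469, 1474 and 1685 in LDC males, against 1831, 1700 and 1679 in control males. Slc16a11 measured 347, 465 and 552 in LDC males, against 565, 494 and 683 in control males. The male log2 fold changes of Slc16a10 and Slc16a11 were -0.17 and -0.37, and their groups overlapped.

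In all, LDC males lay wholly above control males for 3 of the 8 genes (Slc16a5, Slc16a7 and Slc16a12), where 8.62% of the 27022 probe sets tested did so, and wholly below for 1 (Slc16a1), where 7.92% did. The control males lay below all other 9 arrays for 3 genes, against 1.83% of probe sets. Since this comparison chose the family, nothing is read from these counts. The median male log2 fold change of the 7 genes tested was -0.07, and that of all probe sets 0.00.

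Other measures moved with exposure in the same male arrays. Summed over 7 macrophage and Kupffer cell markers, signal ran from 18900 to 26270 in LDC males, against 12830 to 13100 in control males, and 5 of the 7 genes were wholly higher. Over all probe sets tested, 8.62% were wholly higher and 7.92% wholly lower. For 7 neutrophil markers the sums were 3111 to 3339, against 1130 to 1647 (3 genes wholly higher). Most of that sum was S100a8, which averaged 1633 in LDC males and 609.5 in control males, and S100a9, at 984 and 410. Mmp8 ran the other way, at 38.5 and 81.5. For 6 lymphocyte and plasma cell markers the sums were 1854 to 2766, against 1478 to 1627 (1 gene). For 7 stellate cell and fibroblast markers they were 14370 to 15130, against 11150 to 14050 (1 gene). Sums of 6 hepatocyte markers were lower, at 311600 to 318200 in LDC males, against 325100 to 356700 in control males (3 genes wholly lower). Those of 3 pancreatic acinar markers were also lower, at 1043 to 1376, against 2053 to 2528, with 1 gene wholly lower and 1 wholly higher. Most of the acinar sum was Cela1, which averaged 1106 in LDC males and 2205 in control males. Sums of bile duct, endothelial, red blood cell and adipocyte markers overlapped between the male groups. The ratio of the 3' to the 5' control probe set of Gapdh was 0.684 to 0.763 in LDC males, against 0.766 to 0.836 in control males, while that of actin overlapped. Their part in the signals of the Slc16 genes was not tested, and in whole liver a change in the number of cells and in RNA per cell cannot be told apart.

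The signals of Slc16a5, Slc16a7 and Slc16a12 followed each other over the 12 arrays, with r = 0.86 for Slc16a5 and Slc16a7, 0.83 for Slc16a5 and Slc16a12, and 0.85 for Slc16a7 and Slc16a12, on the log2 scale. The arrays share the 4 group means, and with each group mean removed the values were 0.64, -0.03 and 0.40. For Slc16a7 and Slc16a10, r was 0.02 over the arrays and 0.78 with the group means removed, the highest of all pairs of the genes tested. Slc16a5 also had 0.68 with Slc16a11 and 0.61 with Slc16a10 once the group means were removed, against -0.21 and -0.12 over the arrays. Among 12819 other named genes, those most like Slc16a5 over the 12 arrays were Sik1, a salt-inducible kinase (r = 0.970), Acot4, a peroxisomal acyl-CoA thioesterase (r = 0.928), and Prkacb, a catalytic subunit of protein kinase A (r = 0.925). Slc16a7 came at rank 10 and Slc16a12 at rank 15. Sik1 averaged 427 ± 138 (SD, n = 3) in LDC males and 155 ± 36.0 in control males, and 279 ± 44.8 in LDC females and 322 ± 32.4 in control females. Those most like Slc16a12 were Proz, the plasma protein Z (r = 0.948), Prnp, the prion protein (r = 0.919), and Tmem97, a membrane protein of sterol handling (r = 0.916). The ranking includes the group means, among them the male difference that chose the family, and was not repeated with the group means removed. All these correlations describe 12 arrays and are given without a test.

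**Figure D2:**
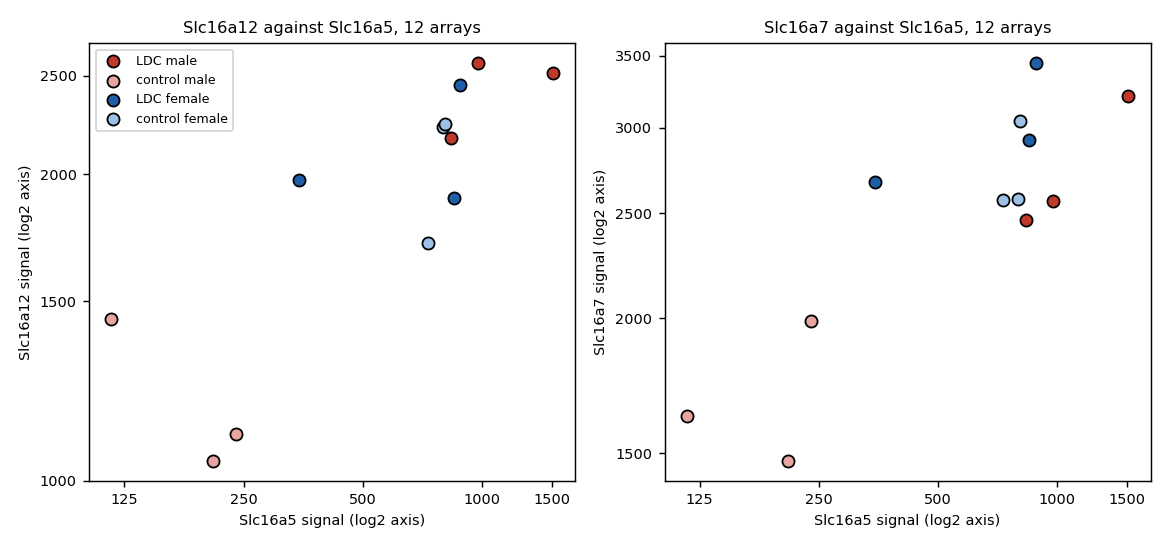
Signal of Slc16a12 (left, y axis) and Slc16a7 (right, y axis) against that of Slc16a5 (x axis), all on log2 axes. Each point is 1 of 12 arrays, coloured by group. The 3 control males sit at the lower left, at Slc16a5 signals of 116 to 239, and the other arrays form a cloud at 346 to 1512.

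No Slc16 gene passed the test in LDC females. None of the 7 genes tested, nor any of their 10 probe sets, passed at an adjusted p under 0.05 in limma, where 33 of 27022 probe sets, or 0.122%, did. Before adjustment, 2435 of the 27022 probe sets had a p under 0.05 in limma. At an unadjusted p under 0.05 there were 0 of the 7 genes and 1 of the 10 probe sets, and the methods' t-test, with Benjamini-Hochberg adjustment, also gave 0 genes. For Slc16a12 the female log2 fold change was 0.03, with a 95% interval of -0.30 to 0.36 (adjusted p = 0.974 from limma). For Slc16a7 it was 0.14, with an interval of -0.17 to 0.45 (adjusted p = 0.831 from limma). For Slc16a5 it was -0.28, with an interval of -1.02 to 0.45 (adjusted p = 0.863 from limma), and LDC female 1, at 346, was far below the other LDC females. Without that array the value was 0.16. The difference between the sexes in the effect of LDC was not tested for them, because it contains the comparison that chose the family.

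The other members did not pass in females either. Slc16a1 measured 6429, 5393 and 5111 in LDC females, against 5986, 5093 and 9941 in control females. Its log2 fold change was -0.26 (95% interval -0.72 to 0.20, adjusted p = 0.775 from limma) and turned to 0.025 without control female 3, the array at 9941. Slc16a6 measured 288, 322 and 270 in LDC females, against 332, 336 and 396 in control females. It was the only 1 of the 8 genes whose female groups did not overlap, which 13.9% of all probe sets tested also did not, and its log2 fold change was -0.27 (95% interval -1.22 to 0.68, adjusted p = 0.904 from limma). Slc16a11, whose human counterpart has been tied to pyruvate transport, measured 496, 613 and 647 in LDC females, against 535, 473 and 496 in control females, a log2 fold change of 0.22 (95% interval -0.20 to 0.64). Slc16a10 measured 1315, 1660 and 1976 in LDC females, against 1269, 1890 and 1337 in control females, a log2 fold change of 0.14 (95% interval -0.21 to 0.50). The median of the 7 values was 0.03, and that of all probe sets tested 0.01. Neutrophil marker sums in the same arrays were 710 to 1047 in LDC females, against 3189 to 5989 in control females. Of the 7 genes, 4 were wholly lower, of which 3 passed in limma. Over all probe sets tested, 13.9% did not overlap in 1 direction or the other, and 0.122% passed. Lymphocyte and plasma cell marker sums were also lower, at 706 to 1096, against 1979 to 3838, with 2 of 6 genes wholly lower and 1 wholly higher. Sums of the other 8 marker lists overlapped between the female groups, and the part of any of them in the Slc16 values was not tested.

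Between the sexes, averaged over exposure, Slc16a1 and Slc16a7 were lower in males. Slc16a1 ran from 2876 to 5777 in the 6 males with a median of 3677, against 5093 to 9941 in the 6 females with a median of 5689. The difference, male minus female, was -0.70 on the log2 scale (standard error 0.15, adjusted p = 0.00624 from limma), which is 0.617-fold. Only control male 3, at 5777, lay within the range of the females. The value was similar in both exposures, at -0.79 between LDC males and LDC females and -0.60 between control males and control females. The call of Slc16a1 stood in all 21 alternatives run, with adjusted p from 0.00209 to 0.0428.

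Slc16a7 ran from 1476 to 3213 in males with a median of 2227, against 2572 to 3444 in females with a median of 2800. Its averaged difference was -0.41 (standard error 0.10, adjusted p = 0.0136 from limma), which is 0.75-fold. Here the exposures differed in size, with -0.14 between LDC males and LDC females and -0.69 between control males and control females. The averaged difference thus rests mainly on the control males. Its call was lost with eBayes without a trend (adjusted p = 0.0582).

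Slc16a5, Slc16a6 and Slc16a12 were lower in males by value but did not pass. Their averaged differences were -0.68 (95% interval -1.20 to -0.16, adjusted p = 0.0847 from limma), -0.80 (-1.48 to -0.13, adjusted p = 0.113) and -0.29 (-0.52 to -0.06, adjusted p = 0.0992). The call of each was gained when 1 array was left out. Slc16a5 passed without LDC female 1 (adjusted p = 0.00958), Slc16a6 without control male 3 (adjusted p = 0.00173), and Slc16a12 without control female 3 (adjusted p = 0.0447) or control male 2 (adjusted p = 0.0438). Without a male array the male groups differ in size, and the sex comparison then draws in part on the comparison that chose the family. Slc16a6 ran from 93.0 to 494 in males with a median of 165, against 270 to 396 in females with a median of 327, and all males but control male 3 lay below all females. For Slc16a5 and Slc16a12 the averaged value joins opposite signs. Slc16a5 stood at 0.75 between LDC males and LDC females and at -2.11 between control males and control females, and Slc16a12 at 0.21 and -0.79. Slc16a11 had an averaged difference of -0.09 (95% interval -0.39 to 0.21).

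Of the 7 genes, 2 passed as lower in males and none as higher, where 7.31% of all probe sets tested passed as lower. Over all of them 1975 were called lower and 1617 higher in males, and with median centring 2579 and 1132. By value, 6 of the 7 were lower in males, with a median of -0.41, against -0.02 over all probe sets tested. Slc16a5 and Slc16a12 count among the 6 only through the control males. Between LDC males and LDC females they stood at 0.75 and 0.21. The share of all probe sets lower in males by value was not computed. No gene by its brightest probe set had all 6 males below all 6 females, which 3.46% of probe sets had. Sums of 3 red blood cell markers ran from 1762 to 3892 in males, against 405 to 643 in females. Most of that sum was Alas2, at 1940 in LDC males, 3009 in control males, 486 in LDC females and 407 in control females. In the same order Hba-a1 averaged 32.3, 37.8, 32.7 and 35.8, and Slc4a1 93.5, 40.4, 15.1 and 58.3. Of the 3, only 1 was tested, and it passed as higher in males. Of 7 stellate cell and fibroblast markers, 3 passed as lower in males. The part of these markers in the Slc16 values was not tested.

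**Figure D3:**
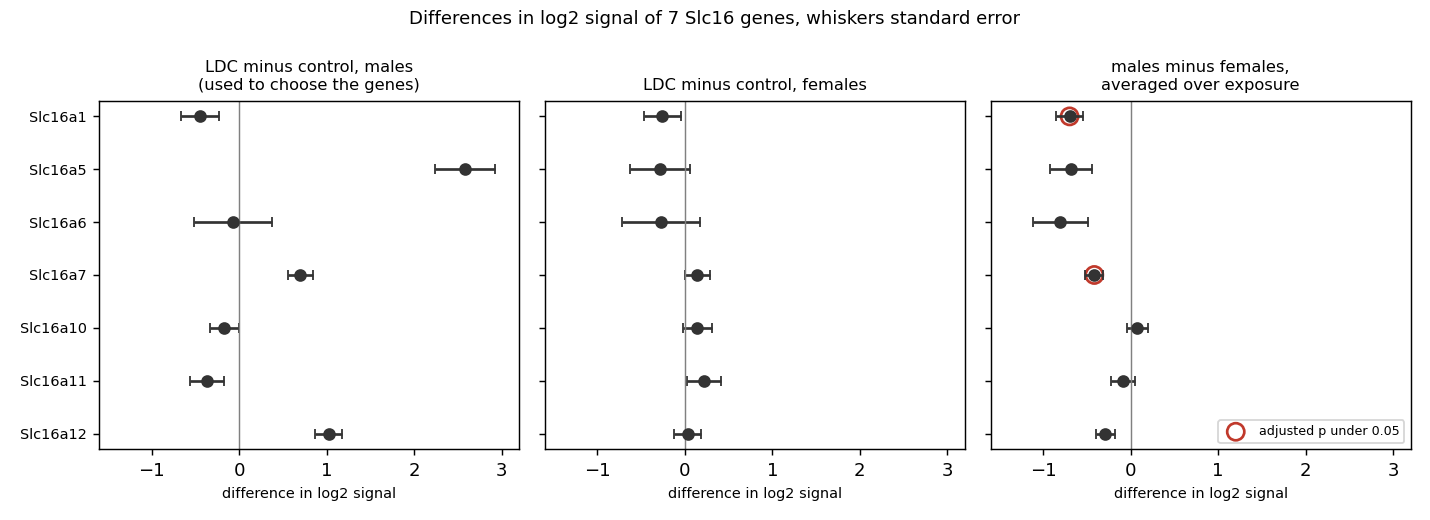
Differences in log2 signal (x axis) of the 7 Slc16 genes tested (y axis), as LDC minus control in males (left, the comparison that chose the family), LDC minus control in females (middle) and males minus females averaged over exposure (right). Points are fitted values and whiskers standard errors. Slc16a5 stands at 2.58 on the left and -0.28 in the middle, and the ringed genes on the right, Slc16a1 and Slc16a7, passed at an adjusted p under 0.05.

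The 4 probe sets of Slc16a10 did not give a single answer between the sexes. The brightest ran from 1469 to 1831 in males with a median of 1682, against 1269 to 1976 in females with a median of 1499, a difference of 0.08 (adjusted p = 0.731 from limma). The second brightest gave -0.01 (adjusted p = 0.974). The third ran from 64.0 to 162 in males with a median of 130, against 185 to 293 in females with a median of 221, so that all 6 males lay below all 6 females. Its difference was -0.92 (standard error 0.25, adjusted p = 0.0241 from limma), and this made 3 of the 10 probe sets of the family lower in males. The call of the third was lost without control female 2 (adjusted p = 0.0591), LDC female 1 (0.0501), LDC female 2 (0.0543) or LDC male 2 (0.0584). The faintest lay above the filter signal in 8 of the 12 arrays and gave -0.26 (95% interval -2.05 to 1.53). Which transcripts the 4 read was not analysed here. In females the second probe set measured 1548, 1705 and 1895 in LDC mice, against 914, 1668 and 1244 in control mice, a log2 fold change of 0.47 (95% interval 0.08 to 0.85, adjusted p = 0.462 from limma), and the brightest stood at 0.14.

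**Figure D4:**
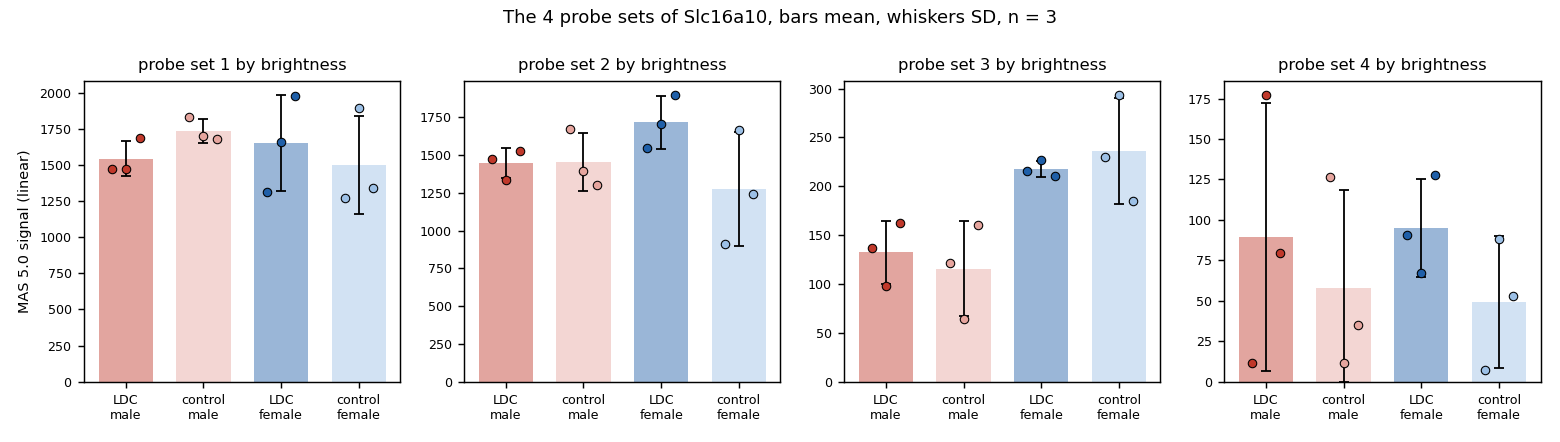
MAS 5.0 signal (y axis, linear) of the 4 probe sets of Slc16a10, from the brightest at the left to the faintest at the right, with the groups along the x axis. Points are arrays, bars means and whiskers SDs, not drawn below 0. In the third panel the 6 males, at 64.0 to 162, lie below the 6 females, at 185 to 293, and in the first panel the sexes overlap.

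Slc16a13, whose product has been tied to lactate transport in mouse liver, lay at the bottom of the scale. Its signals were 62.4, 9.53 and 13.6 in LDC males, against 16.7, 33.4 and 114 in control males, and 52.4, 14.5 and 6.56 in LDC females, against 19.4, 7.75 and 6.37 in control females. Only 3 of the 12 arrays reached the filter signal, so no difference was detectable for it. Slc16a13 and Slc16a11 are direct neighbours in the gene table of GRCm38.p6, and the signals of Slc16a11 were 347 to 683. The files hold no detection calls, so a low signal does not show that the gene is silent.

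Of the 6 other Slc16 genes listed, 5 have a probe set and 3 passed the filter. None passed in females or between the sexes. Slc16a3, which encodes the lactate exporter MCT4, averaged 81.4 ± 42.6 in LDC males and 48.1 ± 17.0 in control males, and 78.3 ± 35.5 in LDC females and 116 ± 35.4 in control females (SD, n = 3). Slc16a9 averaged 296 ± 66.4 in LDC males and 134 ± 36.6 in control males, and 168 ± 110.0 in LDC females and 248 ± 113 in control females (SD, n = 3). Averaged over exposure, males minus females was -0.65 for Slc16a3, 0.14 for Slc16a9 and 0.18 for Slc16a4 (adjusted p = 0.380, 0.855 and 0.737 from limma). Of the partners of the carriers, basigin (Bsg) measured 5400 to 6125 in males with a median of 5726, against 4880 to 6751 in females with a median of 6209, a difference of -0.06 (adjusted p = 0.696 from limma). The brightest probe set of neuroplastin, Nptn, stood at 0.14 (adjusted p = 0.218) and its other probe set at 0.76 (adjusted p = 0.0265), and embigin, Emb, at -0.45 (adjusted p = 0.599). Slc5a8 and Slc5a12, the sodium-coupled carriers of the same acids, did not reach the filter.

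For genes that make or use the cargo, calls were found between the sexes and none in LDC females. By brightest probe sets, the 6 lists of other genes hold 48 genes tested, 3 of them the other Slc16 genes above, and 0 passed in LDC against control females, while 10 passed as higher and 6 as lower in males. Over all probe sets tested, 5.98% passed as higher and 7.31% as lower in males, and the counts of each list stand beside these shares. Between LDC and control females, 2435 of the 27022 probe sets had an unadjusted p under 0.05 in limma. At an unadjusted p under 0.05 the lists had 3 genes in females, and the methods' t-test also called 0 after adjustment. In the list of lactate and pyruvate metabolism, 7 of 16 genes were higher in males, 2 were lower and 7 did not pass, where 5.98% of all probe sets were higher and 7.31% lower, and the median was 0.25 against -0.02 over all probe sets.

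Pck1, the cytosolic enzyme that commits oxaloacetate to gluconeogenesis, ran from 24930 to 36560 in males with a median of 32010, against 13600 to 25410 in females with a median of 16210. The difference was 0.85 (standard error 0.13, adjusted p = 0.000456 from limma). Its other probe sets stood at 1.999 and -1.59, both past the threshold, so its probe sets disagree in direction. Ldhd, the mitochondrial D-lactate dehydrogenase, ran from 3741 to 4488 in males with a median of 4331, against 2114 to 3452 in females with a median of 2728, a difference of 0.62 (adjusted p = 0.00139). All 6 males lay above all 6 females. Gpt2, which interconverts pyruvate and alanine, stood at 0.57 (adjusted p = 0.00159) and Pdp2, a phosphatase that activates pyruvate dehydrogenase, at 0.59 (adjusted p = 0.00723).

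Pcx, pyruvate carboxylase, stood at 0.32 (adjusted p = 0.00925), as did Pdha1 and Pdhb, the subunits of the first enzyme of the pyruvate dehydrogenase complex (adjusted p = 0.0417 and 0.0196). The second probe sets of Pdha1 and Pdhb both stood at 0.26 and did not pass (adjusted p = 0.154 and 0.288). Dlat, the second enzyme of that complex, ran the other way, from 1863 to 2660 in males with a median of 2141, against 2726 to 4156 in females with a median of 2854, again without overlap, a difference of -0.47 (adjusted p = 0.00565 from limma). Mpc1, a subunit of the mitochondrial pyruvate carrier, stood at -0.20 (adjusted p = 0.0303). Ldha, named after its values were seen, the main lactate dehydrogenase subunit of liver, did not pass in either comparison, with 0.18 between the sexes (adjusted p = 0.135) and -0.33 in LDC females (adjusted p = 0.323). The calls of Pcx, Pdha1 and Pdhb were lost with median centring, and omitting a single array ended that of Pdha1 in 8 of 12 cases and that of Mpc1 in 7.

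Of 5 genes of ketone body metabolism tested, Bdh2, a short-chain dehydrogenase, was higher in males by 0.45 (adjusted p = 0.0438 from limma) and the other 4 did not pass by their brightest probe sets. A second probe set of Aacs, acetoacetyl-CoA synthetase, was lower in males, at -1.09 (adjusted p = 0.00901 from limma), while its brightest stood at -0.57 (adjusted p = 0.0620). Among 6 genes of creatine synthesis and transport, 3 were lower in males and none higher, where 7.31% of all probe sets were lower. Gatm, which makes guanidinoacetate, ran from 176 to 392.4 in males with a median of 279, against 289 to 804 in females with a median of 522, a difference of -0.86 (adjusted p = 0.0394 from limma). Gamt, which methylates it to creatine, stood at -0.31 (adjusted p = 0.0490), and the creatine kinase gene Ckb at -0.92 (adjusted p = 0.0257). Slc6a8, the sodium-dependent creatine carrier and also named after its values were seen, stood at 0.72 (adjusted p = 0.113). Leaving out 1 array ended the calls of Bdh2, Gatm and Gamt in 9 of 12 fits each and that of Ckb in 6, and median centring ended that of Bdh2.

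In the list of aromatic amino acid and thyroid hormone handling, the cargo of MCT10, 2 of 15 genes were higher in males, 1 was lower and 12 did not pass, where 5.98% and 7.31% of all probe sets were. A second probe set of Slco1b2, a hepatic uptake carrier, stood at 0.25 (adjusted p = 0.0281 from limma), while its brightest stood at 0.02. Slco1a1, an organic anion transporter with a known male bias in mouse liver, ran from 4791 to 9502 in males with a median of 8568, against 7.81 to 1756 in females with a median of 759. Its difference was 4.40 (standard error 0.95, adjusted p = 0.00619 from limma), of uncertain size since a female signal lay under the filter. Slc43a1, an amino acid carrier, stood at 0.67 (adjusted p = 0.0189). Thra, a thyroid hormone receptor, stood at -0.62 (adjusted p = 0.0140) through its brightest probe set and at -0.40 and -0.38 through the others, which did not pass.

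**Figure D5:**
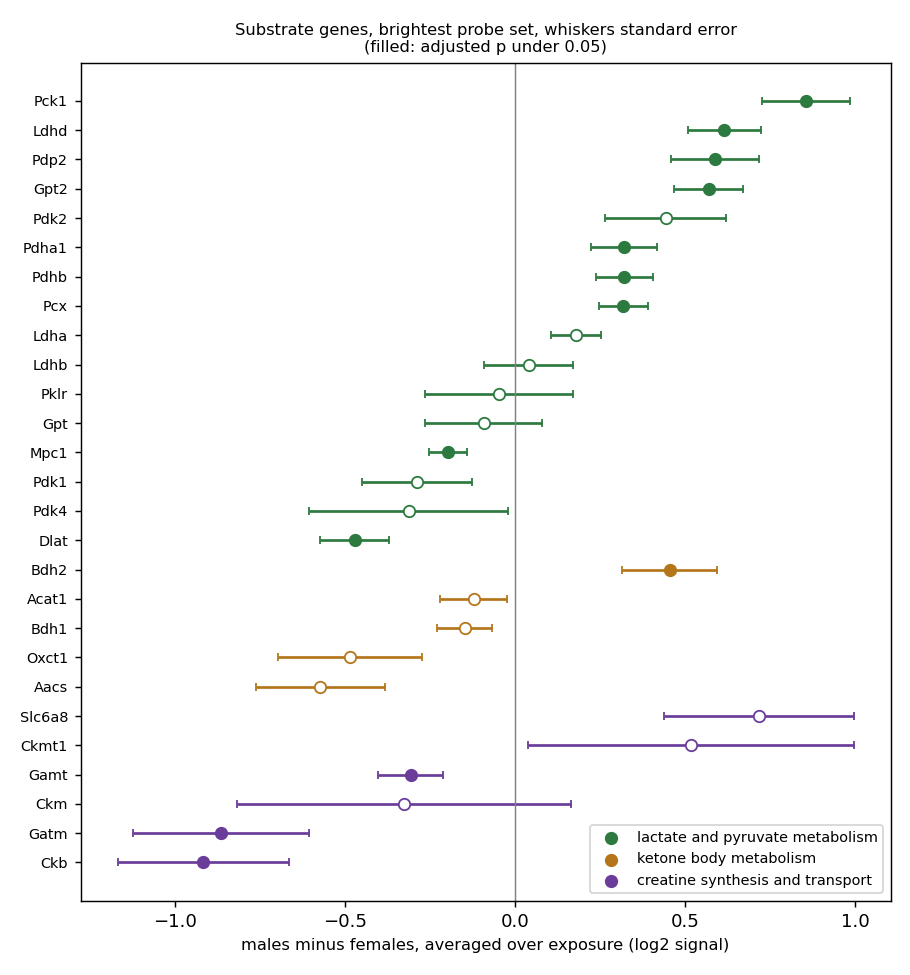
Differences in log2 signal between males and females, averaged over exposure (x axis), for genes of lactate and pyruvate metabolism, ketone body metabolism, and creatine synthesis and transport (y axis). Points are the brightest probe sets, filled where the adjusted p is under 0.05, and whiskers are standard errors. Pck1 stands highest in the lactate and pyruvate list at 0.85 and Dlat lowest at -0.47, and the filled creatine genes lie between -0.31 and -0.92.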

How the data were processed

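RNA of 12 livers was measured on 1 array each. The authors computed the deposited signal intensity of each probe set from the scans with the MAS 5.0 algorithm in GeneSpring (listed there as MAS5), as linear values with no detection calls. MAS 5.0 subtracts mismatch probes and scales each array to a common trimmed mean, so that low signals are noisy on the log2 scale. All 12 value columns were matched to a sample, and 0 were left over.

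Of 45101 probe sets, 64 controls were left out. The platform table (annotation of 2016, symbols updated by gene ID) names 1 gene for 34958, several for 932 and none for 9211. Log2 signals at or above the 40th percentile of the mean (27022 probe sets, 12820 named genes) were fitted in limma 3.58.1 (R 4.3.3) with 1 mean per group, 8 residual degrees of freedom and eBayes with a trend (6.35 prior degrees of freedom), and adjusted by Benjamini and Hochberg over all of them. All tests were two-sided. The number of arrays limits the precision. The sex comparison, the mean of both male groups minus that of both female groups, is orthogonal to the male comparison of LDC with control. This holds for male groups of equal size, and so not in the fits that leave out a male array. The procedure was also run on simulated data, but its outcome is not given here and bears on no result above. The power of the female comparison is therefore not stated.

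The members and lists were chosen with earlier results of these data known. The 6 gene lists hold 59 genes and the 10 marker lists were written from general knowledge. Genes named are the 8 members, every list gene that passed (the 3 of smallest p where none did), and the 3 genes most like Slc16a5 and Slc16a12. Alternatives were 11 settings and the omission of each of 12 arrays. Replicate numbers were not used to pair the arrays, and the check is given with the alternatives. Promoters are from RefSeq (GRCm38.p6).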

Additional observations from a re-analysis of the deposited data

Results flagged for a closer look

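Among the values given with the Slc16 genes, the summed neutrophil and the summed lymphocyte and plasma cell markers moved in opposite directions with LDC, every LDC male lying above every control male and every LDC female below every control female. On the log2 scale the neutrophil sum stood at 1.25 in males and -2.47 in females, and the lymphocyte and plasma cell sum at 0.54 in males and -1.6 in females. The differences between the sexes were not tested. No Slc16 gene had this pattern. S100a8 and S100a9 made up most of the neutrophil sum in every group, and Mmp8 was lower by mean with LDC in both sexes. Jchain was the brightest gene of the lymphocyte and plasma cell list in every group. It averaged 1910 in LDC males against 1133 in control males, and 450 in LDC females against 2399 in control females. By their means, Cd8a and Cd79a ran the other way in both sexes. Cd3g ran with Jchain in both sexes, Cd3e only in males and Ms4a1 only in females.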

How the results depend on the processing

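The number of Slc16 genes called was 0 in females in all 23 alternatives and 2 between the sexes in the main setting, with 1 under eBayes without a trend. Over all probe sets, 33 calls in females became 11 with each sex fitted on its own and 13 with eBayes without a trend. They became 0 with an adjusted t-test on the female arrays alone (1907 at an unadjusted p under 0.05). The paper's own rule for the arrays, a fold cut with a p-value threshold, was not applied. When 1 array was left out there were 15 to 106 calls. These were 106 without control female 2, 21 without control male 2, 19 without LDC female 2 and 15 without LDC female 3. Between the sexes 3592 calls among 27022 probe sets became 2176 among 12820 genes with 1 probe set per gene. Counts of Slc16 and list genes, by brightest probe set, are set above beside shares over all probe sets, which is another base. The share of calls that were higher in males moved to 30.5% with median centring, against 45%. The 16 list genes called between the sexes became 8 with eBayes without a trend, which ended the calls of Bdh2, Ckb, Gamt, Gatm, Mpc1, Pcx, Pdha1 and Pdhb.

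When 1 array was left out, signs turned for some values that had not passed or were not tested. The female value of Slc16a1 ran from -0.46 to 0.025, that of Slc16a5 from -0.52 to 0.16 and that of Slc16a12 from -0.10 to 0.10, and the sex difference of Slc16a11 ran from -0.17 to 0.0003. The male value of Slc16a6, which was not tested, ran from -0.58 to 0.62. The cause was not tested.

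With the replicate number as a block, calls numbered 23 in females and 3410 between the sexes, with 0 and 2 Slc16 genes, and the calls of Gatm and Mpc1 were lost. Deviations of same-numbered arrays from their group means correlated at -0.03 to 0.06, above 0.1 in 0 of 18 pairs. Arrays of different number had -0.08 to 0.08, so the main fit did not pair arrays by number. Whether same-numbered arrays share a litter, a cage or a run was not tested. Signals near or below the filter, as for Slc16a13, bound no difference.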
